A study of Mus musculus with 6 samples.

Results

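Bcl2, Bcl2l1 and Bbc3, 3 genes of the BCL2 family of apoptosis regulators, were examined in T cells of Irf4 -/- (null) and Irf4 +/- (heterozygous) mice. Members were all probes that carry 1 of these 3 symbols in the authors' deposited table of results, which gave 5 probes of the 22749 on each array: 2 for Bcl2, 2 for Bcl2l1 and 1 for Bbc3. That table holds only the 828 probes which passed the authors' limits of over 2-fold change and an unadjusted p under 0.05 on these same arrays, and it is the only source of gene symbols here, where 816 of its probes carry one. Each member was therefore already selected for a difference between the genotypes, and every p below describes that difference without being independent evidence of it. The largest unadjusted p in the authors' deposited table is 0.0499 and its smallest fold is 2.0 in either direction. The member closest to the fold limit is the second Bcl2l1 probe, which the authors' deposited table gives as 2.08-fold lower in null cells. All other probes are unnamed here, including any further probe of a member.

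Both groups were C57BL/6J naive splenic CD4+ T cells, high for CD62L and negative for CD25, cultured for 42 h toward the Th17 fate. Cells were stimulated through plate-bound anti-CD3 and through CD28 in the presence of human TGF-beta, IL-23 and IL-6, with IL-4 and interferon gamma blocked by antibodies. The 3 null samples lacked both functional copies of Irf4, and the 3 heterozygous samples, which served as controls, kept 1. A wild-type group was not analysed here. The replicates are described as biological, but the labels do not tie them to separate mice, so a p-value reflects the variation among these 6 samples. Each sample was hybridised in Cy5 against a Cy3-labelled common reference, a commercial pool of RNA from mouse tissues, and every value below is a log2 ratio of sample to that reference. A value of 0 thus means the same signal as in the pool, and it says nothing about the amount of 1 gene against another. In bulk RNA, fewer cells that express a gene and less of its RNA per cell cannot be told apart.

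Proteins of the BCL2 family decide whether the mitochondrial outer membrane is opened to release cytochrome c. Bcl2 and Bcl-xL, the long product of Bcl2l1, protect the membrane by binding the pore-forming relatives Bax and Bak and the death-promoting BH3-only proteins. PUMA, the product of Bbc3, is a BH3-only protein that binds and blocks the survival members. Naive T cells are known to depend on Bcl2, and Bcl-xL is known to be induced when T cells are activated with CD28 costimulation. Bbc3 is a target gene of p53 and is also induced when lymphocytes lose cytokine support.

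On GRCm38.p6, Bcl2 lies on chr1:106538176-106714290, Bcl2l1 on chr2:152758732-152833803 and Bbc3 on chr7:16308398-16318334. The positions and sequences of the array probes within these genes were not used here, so the isoforms they detect are not known. Start regions of the 3 genes, each with 250 bases before and 50 bases after a RefSeq start, are shown because IRF proteins bind DNA through a GAAA core. Of 7 windows in the RefSeq table, the 1 with the most GAAA matches per gene is printed 5′ to 3′ on the gene's strand, with GAAA or its reverse complement TTTC in capitals. The Bcl2 window is chr1:106714241-106714540 (minus strand), the Bcl2l1 window chr2:152830668-152830967 (minus strand) and the Bbc3 window chr7:16309333-16309632 (plus strand).
Bcl2: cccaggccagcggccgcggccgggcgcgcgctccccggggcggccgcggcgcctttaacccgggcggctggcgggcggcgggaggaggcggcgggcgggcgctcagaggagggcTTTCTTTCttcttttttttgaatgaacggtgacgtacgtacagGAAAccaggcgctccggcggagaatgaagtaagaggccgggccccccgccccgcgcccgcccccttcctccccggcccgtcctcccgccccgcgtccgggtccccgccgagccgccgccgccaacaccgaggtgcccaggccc
Bcl2l1: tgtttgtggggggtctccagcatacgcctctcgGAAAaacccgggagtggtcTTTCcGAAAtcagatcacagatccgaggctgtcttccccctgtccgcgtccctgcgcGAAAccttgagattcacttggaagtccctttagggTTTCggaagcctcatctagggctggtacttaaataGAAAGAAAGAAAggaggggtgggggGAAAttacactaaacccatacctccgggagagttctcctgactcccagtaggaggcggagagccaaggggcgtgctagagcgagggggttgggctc
Bbc3: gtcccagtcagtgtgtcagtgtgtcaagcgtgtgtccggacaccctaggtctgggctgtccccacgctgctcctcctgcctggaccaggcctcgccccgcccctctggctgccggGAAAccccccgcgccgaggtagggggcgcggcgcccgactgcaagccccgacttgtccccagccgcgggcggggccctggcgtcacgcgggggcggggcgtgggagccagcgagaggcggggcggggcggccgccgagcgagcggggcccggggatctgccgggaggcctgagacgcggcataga

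The Bcl2 window held 3 such matches. The Bcl2l1 window held 9, while the other 2 windows of that gene held 6 and 3. The Bbc3 window held 1, and the other 2 windows of Bbc3 held 0. At least 1 match is present in 89.2% of the 32851 windows in the table, so its presence alone does not set these genes apart. The longer core of the interferon-stimulated response element, a pair of GAAA in the same direction with 2 bases between them, had 0 matches on either strand in all 7 windows and is present in 3.44% of all windows. The AP-1 motif TGANTCA and the STAT motif TTCNNNGAA, which read the same on both strands, also had 0 matches in the 7 windows and are present in 7.81% and 8.3% of all windows. The Bcl2 and Bbc3 windows printed above each had a GC content of 76.0%, against 55.7% in the Bcl2l1 window. These letter matches describe 300 bases per start and say nothing about binding.

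The arrays had medians of -0.03 to 0.06, and SDs of 1.61 to 1.83 on null arrays and 1.74 to 1.76 on heterozygous arrays. Null replicate 1 stood apart: it correlated with the other null arrays at r = 0.915 and 0.936 across probes, which are not independent replicates, and it held ratios of exactly 0 at 5.28% of probes. Null replicate 3 correlated with heterozygous arrays at 0.930 to 0.937, and with null replicates 1 and 2 at 0.915 and 0.961. With heterozygous arrays, null replicate 2 correlated at 0.927 to 0.929 and null replicate 1 at 0.882 to 0.891. For heterozygous replicate 3 the genotype is written ambiguously in 1 label, though its title and genotype field place it in that group. The effect of these arrays on each member is given with that member. Irf4, which encodes a transcription factor of activated lymphocytes, had log2 ratios of 0.62, 0.65 and 0.73 on the null arrays, against 3.02, 2.85 and 2.93 on the heterozygous arrays (log2 fold change -2.26, limma adjusted p = 0.00217). All null arrays were lower, as the labels have it, though whether the probe lies in the disrupted part of the gene is not known here. Among T cell identity markers only Cd28 of 11 genes had a named probe, so the labelled cell type could not be checked against Cd3e or Cd4.

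Among the survival genes, Bcl2l1 fell in null cells and Bcl2 had higher values there without passing the test, while the death gene Bbc3 rose. Null and heterozygous cells were compared with limma over all 22749 probes, and a probe was called at a Benjamini-Hochberg adjusted p under 0.05. Of the 5 member probes, 1 was called higher in null cells, where 1.63% of all probes were called higher. Another 2 were called lower, where 1.56% of all probes were called lower, and 3.19% of all probes were called in either direction. The other 2, both of Bcl2, did not pass. The 3 arrays of each group did not overlap for any of the 5 probes. Over all probes, 12.4% did not overlap with null cells higher and 17.7% with null cells lower. Since the authors' deposited table chose the members on this contrast, these shares are context only and nothing is read from the difference.

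**Figure D1:**
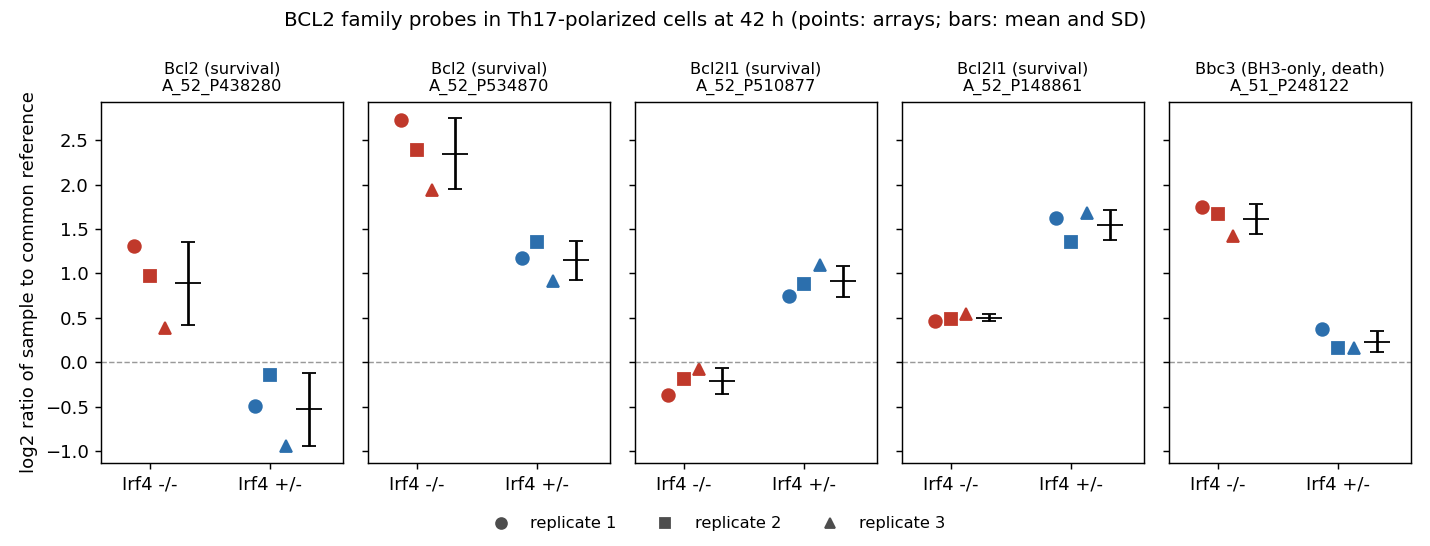
Log2 ratio of sample to common reference (vertical axis) of the 5 member probes on each Irf4 -/- array (red, left) and Irf4 +/- array (blue, right), with the mean and SD of 3 arrays as black bars. Both Bcl2 probes and the Bbc3 probe lie higher on all Irf4 -/- arrays, both Bcl2l1 probes lie lower, and the Bcl2 points are the most spread.

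Bcl2l1, the gene of the survival protein Bcl-xL, was lower in null cells at both probes. At probe A_52_P510877 its log2 ratios were -0.37, -0.19 and -0.08 on null arrays 1, 2 and 3, against 0.75, 0.88 and 1.10 on heterozygous arrays 1, 2 and 3. All null values thus lay below the reference pool and all heterozygous values above it, with a gap of 0.83 between the closest arrays. The means were -0.21 ± 0.15 in null cells and 0.91 ± 0.18 in heterozygous cells (SD, n = 3 each). Bcl2l1 fell by 1.13 on the log2 scale at this probe (SE 0.15, 95% confidence interval -1.50 to -0.75), a 2.18-fold difference with a limma adjusted p of 0.0231. At probe A_52_P148861 the log2 ratios were 0.46, 0.49 and 0.54 on null arrays, against 1.63, 1.35 and 1.68 on heterozygous arrays. Here both groups lay above the reference, and the null arrays were within a narrow range, with means of 0.50 ± 0.04 in null cells and 1.55 ± 0.17 in heterozygous cells (SD, n = 3 each). The log2 fold change was -1.05 (SE 0.14, 95% confidence interval -1.39 to -0.72, limma adjusted p = 0.0208).

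The probes of Bcl2l1 gave like changes, with a difference between their log2 fold changes of -0.07 (two-sided exact permutation p = 0.6 over the per-array differences, where 3 against 3 cannot go below 0.1). The size of the Bcl2l1 change varied little when single arrays were left out, from -1.21 to -1.03 at the first probe and from -1.15 to -0.99 at the other. Its call was lost in most of these fits, in which 0.308% to 1.75% of all probes passed, against 3.19% with all arrays. The first probe passed only without null replicate 3 (adjusted p = 0.0498) and otherwise had adjusted p-values of 0.0606 without null replicate 1, 0.113 without null replicate 2, and 0.0741, 0.065 and 0.111 without heterozygous replicates 1, 2 and 3. The second Bcl2l1 probe passed only without heterozygous replicate 2 (0.0347). Without null replicates 1, 2 and 3 it had 0.0582, 0.111 and 0.0511, and without heterozygous replicates 1 and 3 it had 0.0902 and 0.112.

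Bbc3, which encodes the BH3-only death protein PUMA, had the clearest separation of the members. Its single probe, A_51_P248122, had log2 ratios of 1.75, 1.67 and 1.42 on null arrays, against 0.37, 0.16 and 0.16 on heterozygous arrays. All 6 values lay above the reference, and the lowest null array was 1.06 above the highest heterozygous array. The means were 1.61 ± 0.17 in null cells and 0.23 ± 0.12 in heterozygous cells (SD, n = 3 each). Bbc3 rose 2.62-fold in null cells (limma adjusted p = 0.0119), a difference of means of 1.39 on the log2 scale (95% confidence interval 1.03 to 1.74, SE 0.15). With 1 array left out it changed by 1.32 to 1.48. It passed in 4 of 6 such fits, with adjusted p-values of 0.0377 and 0.0275 without null replicates 1 and 3, and 0.0479 and 0.0442 without heterozygous replicates 1 and 2. It missed the threshold without null replicate 2 (0.0825) and without heterozygous replicate 3 (0.0813), where its log2 fold changes were 1.36 and 1.35. In these fits 0.308% and 0.356% of all probes passed, against 3.19% with all arrays.

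Bcl2 had higher values on every null array at both probes, but its arrays were spread more widely than those of the other members and neither probe passed the threshold. At probe A_52_P438280 the log2 ratios were 1.31, 0.97 and 0.38 on null arrays, against -0.49, -0.14 and -0.95 on heterozygous arrays. The null arrays lay above the reference and the heterozygous arrays below it. The means were 0.89 ± 0.47 in null cells and -0.53 ± 0.41 in heterozygous cells (SD, n = 3 each), and the log2 fold change was 1.42 (95% confidence interval 0.66 to 2.17, SE 0.31, unadjusted p = 0.00355, limma adjusted p = 0.0736). At probe A_52_P534870 the log2 ratios were 2.73, 2.39 and 1.94 on null arrays, against 1.17, 1.36 and 0.92 on heterozygous arrays. Both groups lay above the reference here, with means of 2.35 ± 0.40 in null cells and 1.15 ± 0.22 in heterozygous cells (SD, n = 3 each). The log2 fold change was 1.20 (SE 0.24, 95% confidence interval 0.63 to 1.78, limma adjusted p = 0.0581).

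The Bcl2 probes ranked the arrays alike: null replicate 1 was the highest and null replicate 3 the lowest null array at both, and heterozygous replicate 2 was the highest and heterozygous replicate 3 the lowest heterozygous array at both. Between the probes the log2 fold changes differed by 0.21 (two-sided exact permutation p = 0.2). The difference between the 2 probes varied across arrays with an SD of 0.08 in null cells and 0.19 in heterozygous cells, below the SDs of 0.40 and 0.47 of the probes themselves in null cells and of 0.22 and 0.41 in heterozygous cells. The null arrays' spread in Bcl2 was thus largely shared by its probes, that of the heterozygous arrays less so. Without null replicate 1 the log2 fold changes of Bcl2 were 1.20 and 1.01, and without null replicate 3 they were 1.67 and 1.41, at the first and second probe. Without heterozygous replicate 3, the ambiguously labelled array, they were 1.20 and 1.09 (adjusted p = 0.221 and 0.204). The second probe passed without null replicate 3 (adjusted p = 0.0499) and in 0 of the other 5 such fits, where the adjusted p was 0.104 to 0.204. The first probe passed in 0 of 6, with adjusted p-values of 0.066 to 0.221.

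**Figure D2:**
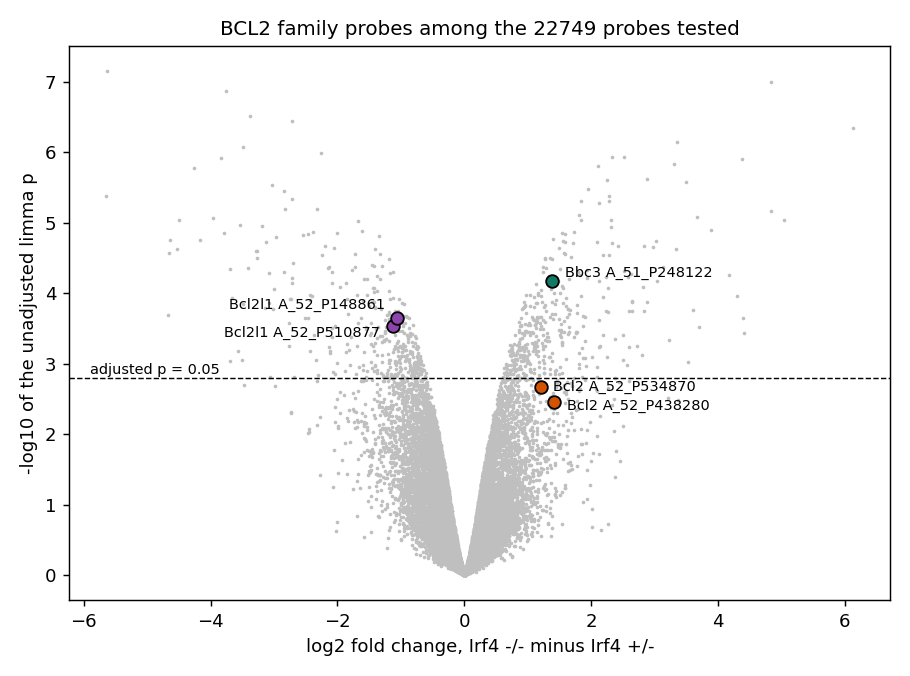
Log2 fold change of Irf4 -/- over Irf4 +/- cells (horizontal axis) against -log10 of the unadjusted limma p (vertical axis) for all 22749 probes (grey), with the 5 member probes coloured by gene. The dashed line marks an adjusted p of 0.05: Bbc3 and both Bcl2l1 probes lie above it and both Bcl2 probes below it.

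Against the whole array, the members' changes were large, as the 2-fold limit of their selection required. Of all probes, 95.5% to 97.9% had a smaller absolute log2 fold change than a given member probe. The first Bcl2 probe had the 473rd largest absolute log2 fold change of 22749 probes and the Bbc3 probe the 498th. The second Bcl2 probe ranked 724th, and the Bcl2l1 probes ranked 876th and 1025th. Among the 828 listed probes the members ranked between 393rd and 745th, and the median absolute log2 fold change of the listed probes was 1.39, equal at this rounding to that of Bbc3. The members differed more in their spread than in their change. The pooled within-group SD was 0.44 and 0.32 for the Bcl2 probes, above the median of 0.26 over all probes. It was 0.16 and 0.13 for the Bcl2l1 probes and 0.15 for Bbc3, below that median.

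Among the null arrays, replicate 3 was the nearest to the heterozygous arrays at all 5 member probes. On a scale where the heterozygous mean is 0 and the null mean is 1, null replicate 3 stood at 0.64 and 0.66 for the Bcl2 probes, 0.88 and 0.96 for the Bcl2l1 probes and 0.86 for Bbc3. Null replicate 1 stood at 1.30 and 1.31 for Bcl2, 1.14 and 1.03 for Bcl2l1 and 1.10 for Bbc3. Null replicate 3 was likewise the nearest for 54.2% of the 6868 probes whose groups did not overlap and for 47.9% of the 828 listed probes. The median position of null replicate 3 was 0.86 over the first of these sets and 0.95 over the second. Bcl2 thus stood at lower positions on this array than either median, while Bbc3 and Bcl2l1 lay near them. What differs in this array was not tested.

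The listed genes whose values ran most like those of a member were found by Pearson's r over the 6 arrays. Each member's correlation with genotype alone was 0.892 and 0.917 in size for Bcl2, 0.973 and 0.981 for Bcl2l1 and 0.985 for Bbc3, so most of the likeness restates the shared difference between the genotypes. For Bcl2 the highest r was with Fam110c at both probes, at 0.996 and 0.994. At the first probe Hic1 (0.985) and Zfp36l1 (0.977) followed, and at the second Zfp36l1 (0.992) and Smyd3 (0.991). For Bcl2l1 they were Hemgn, Cela1 and 4930507A01Rik at the first probe, with r = 0.998, 0.997 and 0.997, and Cd24a, Wdfy2 and Sipa1l2 at the second, with 0.999, 0.999 and 0.998. For Bbc3 they were Fam3c (0.999), Vpreb1 (0.998) and Dtx4 (0.998). Listed probes with an r over 0.95 numbered 35 and 69 for the Bcl2 probes, 145 and 179 for the Bcl2l1 probes and 165 for Bbc3.

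Of 23 other BCL2 family genes on a fixed list, only Bmf had a named probe. Bmf, which encodes a BH3-only protein, had log2 ratios of -1.12, -1.31 and -1.99 on null arrays, against -2.39, -2.52 and -2.74 on heterozygous arrays. The groups did not overlap, and null replicate 3 was again the nearest to the heterozygous arrays. Its log2 fold change was 1.08 (SE 0.25, 95% confidence interval 0.46 to 1.69, limma adjusted p = 0.0872). Of the 6 fits that left out 1 array, it passed in that without null replicate 3 (0.0411), and it also passed when the most variable probes were left out (0.0227). Of the 7 other survival genes of the family, among them Mcl1 and Bcl2a1b, 0 had a named probe, and the same held for the 7 effectors and their relatives, among them Bax and Bak1. Bcl2l11, Pmaip1 and Bid, further BH3-only genes, also had none. Such genes could have a probe that missed a limit of the authors' table, or no probe, so nothing is known here of their levels. Of 19 caspases, apoptosome genes and inhibitor of apoptosis genes, and of the 12 genes on a fixed list of FoxO-linked genes, 0 were named. A FoxO-linked gene outside those 12, or filed under another list or as a member, is not in that count.

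Of 14 genes on a fixed list of death receptors, ligands and adaptors, which also holds Tnfaip3, 3 were named. Of these 1 rose and 2 fell. Named probes had to pass a 2-fold limit, so no median is compared with that of all probes. Of all 828 listed probes 58.5% passed the limma threshold, so nothing about a pathway is read from these counts. Tnfsf10, which encodes the death ligand TRAIL, rose 6.06-fold, with log2 ratios of 2.27, 2.31 and 2.25 on null arrays and -0.53, 0.41 and -0.86 on heterozygous arrays (limma adjusted p = 0.0189). The null arrays were nearly equal and the heterozygous arrays spread, and the methods' t-test gave an adjusted p of 0.055. Tnf fell by 1.38 on the log2 scale (adjusted p = 0.0357), as did Tnfaip3, the gene of the NF-kappaB inhibitor TNFAIP3, which fell by 1.09 (adjusted p = 0.0312). Of 22 p53 pathway genes only Sesn1, a sestrin gene of the stress response, was named. Sesn1 rose 2.19-fold (limma adjusted p = 0.0235, log2 fold change 1.13 with an SE of 0.16), with values of 0.43, 0.53 and 0.51 on null arrays and -0.77, -0.37 and -0.78 on heterozygous arrays. With 1 array left out Tnfsf10, Tnfaip3 and Sesn1 each passed only without heterozygous replicate 2, and Tnf only without null replicate 3. In the other fits the adjusted p-values of Tnfsf10, Tnfaip3, Sesn1 and Tnf were up to 0.0975, 0.134, 0.12 and 0.153. By the methods' t-test Tnf (adjusted p = 0.0732) and Tnfaip3 (0.0542) did not pass either, whereas Sesn1 did (0.0419).

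**Figure D3:**
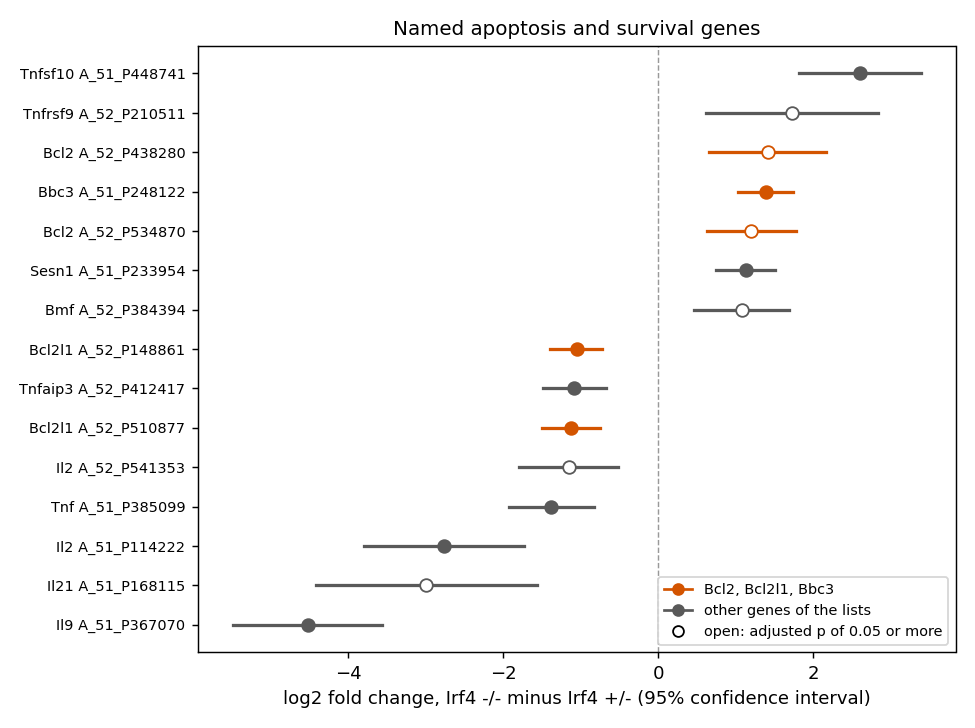
Log2 fold change of Irf4 -/- over Irf4 +/- cells (horizontal axis) with its 95% confidence interval for each named probe of the apoptosis and survival lists, members in orange and other genes in grey. Filled points passed an adjusted p of 0.05: Bbc3, Tnfsf10 and Sesn1 to the right of 0, and both Bcl2l1 probes, Tnfaip3, Tnf, Il9 and 1 of 2 Il2 probes to its left.

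Of 22 genes of the common gamma chain cytokines, which sustain T cells, their receptors and STAT signalling, 3 were named. Of these 2 passed and fell, 0 passed and rose, and the third had a lower value without passing. As 58.5% of all listed probes passed, nothing is read from this count. The other genes of the list have no value here. Il2, the T cell growth factor gene, had log2 ratios of 2.24, 3.16 and 3.83 on null arrays, against 5.61, 5.64 and 6.27 on heterozygous arrays, at probe A_51_P114222, where it fell 6.79-fold (limma adjusted p = 0.0312). Its other probe had a log2 fold change of -1.15 (adjusted p = 0.0794). Il9 fell by 4.52 on the log2 scale (adjusted p = 0.00741). Il21, named after its value was seen, had -2.99 (adjusted p = 0.0571). Of 15 NF-kappaB genes Tnfaip3 and Tnfrsf9 were named, and Tnfrsf9, which encodes the costimulatory receptor 4-1BB and was likewise named after its value was seen, had a log2 fold change of 1.73 (adjusted p = 0.111). The first Il2 probe passed without null replicate 1 and without null replicate 3, and in the other 4 fits that left out 1 array it did not, with adjusted p-values of up to 0.129. Il9 passed in 5 of 6, with 0.0505 without heterozygous replicate 3. By the methods' t-test the first Il2 probe did not pass (adjusted p = 0.0797), whereas Il9 did (0.0352).

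Only probes that passed the authors' limits carry a symbol, so each named marker of another cell type differed between the groups by selection. The other markers on the lists have no value here, and the part of such cells in the members' values was not tested. Of 9 CD8 T cell and NK cell markers 3 were named. Klre1, an NK cell receptor gene, fell by 3.57 on the log2 scale (limma adjusted p = 0.0333), with 1 null value of exactly 0. With zeros as missing Klre1 had -3.47 (adjusted p = 0.0746) and did not pass, nor did it by the methods' t-test (0.0853). Cd8a and Prf1, named after their values were seen, had log2 fold changes of 1.29 and 2.36 (adjusted p = 0.136 and 0.113). Cd8a had log2 ratios of 4.28 to 4.75 on null arrays, and all heterozygous arrays lay lower, with 2.53 the lowest, yet still above the reference. Of 9 B cell and plasma cell markers only Sdc1 was named and rose, by a log2 fold change of 1.39 (adjusted p = 0.0209). It lay below the reference on all 6 arrays. Of 10 myeloid markers only Itgax was named, with -1.32 (adjusted p = 0.116) and values of -3.47 to -2.40 on null arrays and -1.95 to -1.01 on heterozygous arrays. Cd28, the 1 named T cell marker, had 0.00, 0.32 and 0.00 on null arrays, against 0.78, 1.07 and 2.16 on heterozygous arrays. Its log2 fold change was -1.23 (adjusted p = 0.139), with 2 null values of exactly 0. With zeros as missing, which leaves 1 null array, Cd28 had -1.02. With 1 array left out, Klre1 passed only without null replicate 1, and Sdc1 only without null replicate 3 or heterozygous replicate 1, with adjusted p-values of up to 0.134 and 0.11 otherwise. As these are ratios to a reference, no summed marker level can be given.

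**Figure D4:**
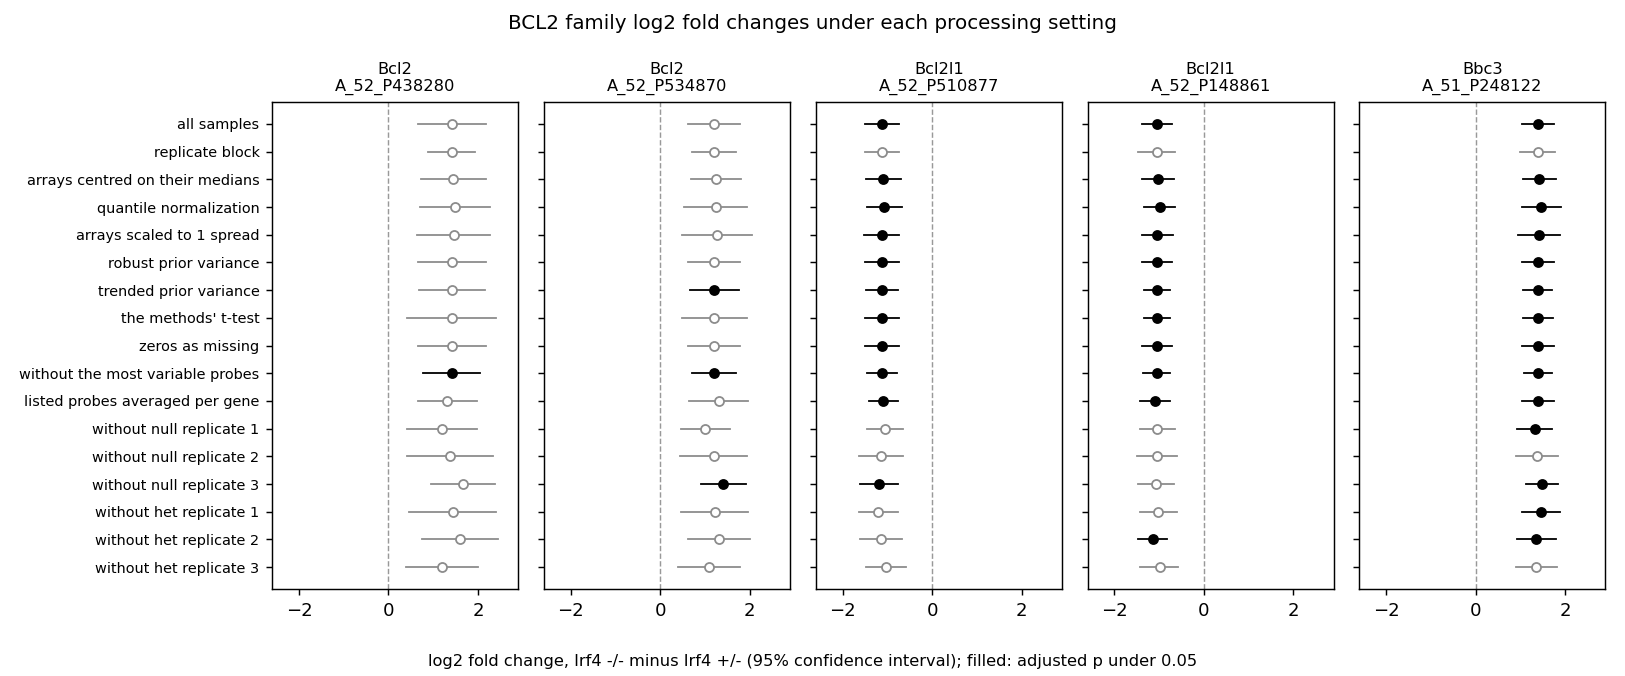
Log2 fold change of Irf4 -/- over Irf4 +/- cells (horizontal axis) of each member probe, with its 95% confidence interval, under each processing setting (down the page). Filled black points passed an adjusted p of 0.05. Every interval of all 5 probes lies on 1 side of 0, whereas the calls of Bcl2l1, Bbc3 and Bcl2 probe A_52_P534870 change with the array left out.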

How the data were processed

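The values are log2 ratios of Cy5 (sample) to Cy3 (common reference) as deposited, called normalized in the authors' file header. The dye labels give this direction, and no dyes were swapped. The submitters' processing notes name Agilent Feature Extraction 10.7 and Partek. How background was corrected is not stated there. Per the file headers, the authors' p-values are from an ANOVA run in Partek Genomic Suite 6.6, and their deposited fold changes are signed scores, a fall being minus the inverse ratio. The log2 of these folds equalled the differences of group means within 1.03e-05. No spot intensities or scan dates were used, so dim probes stayed in and no batch was tested.

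Groups follow the sample titles. All 22749 probes were fitted with limma 3.58.1 (lmFit, eBayes) in R 4.3.3 without covariates, with Benjamini-Hochberg adjustment over all of them. The fit was tested on simulated data. The members, the 13 gene lists and the tests were chosen with earlier results of these data known. Symbols were updated through the RefSeq table (GRCm38.p6), and 15 of 157 list genes had a named probe. Of each list, up to 3 genes past the threshold with the largest change are named, or up to 2 where none passed, and the 3 most alike genes per member probe. Alternatives covered the replicate block, centring, quantile normalization, scaling, the methods' t-test, the prior variance, averaging of probes, zeros as missing, a filter on variable probes and leaving out each array. Protein sequences were not used here.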

Additional observations from a re-analysis of the deposited data

How the results depend on the processing

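All 5 member probes kept their direction under each of 16 alternatives. As their groups did not overlap, leaving out 1 array could not reverse them. The block, the prior variances, the methods' t-test and the filter on variable probes leave the log2 fold change as it is. Treating zeros as missing does so too, as no member value was exactly 0. The kept direction is no added evidence in these settings. With the replicate number as a block, the log2 fold changes were those of the fit without it, and the calls of Bcl2l1 (-1.13 and -1.05, limma adjusted p = 0.0876 and 0.102) and Bbc3 (1.39, adjusted p = 0.0744) were lost. For Bcl2 the block gave 0.0972 and 0.105. Over all probes 76 passed with this replicate block, against 725 without it. Deviations of same-numbered arrays correlated at 0.097, -0.013 and -0.037, so the numbers are not shown to pair the samples. Leaving out the 25% of probes with the largest spread within groups, which by construction lowers the error estimate shared across probes, gave 1969 calls, among them both Bcl2 probes (1.42 and 1.20, adjusted p = 0.0171 and 0.012), and a trended prior variance gave 1.20 with 0.0482 at A_52_P534870. An adjusted p under 0.1 gave 1535 probes. With 1 array left out, 70 to 398 probes passed, and the log2 fold changes were 1.20 to 1.67 and 1.01 to 1.41 for Bcl2, -1.21 to -1.03 and -1.15 to -0.99 for Bcl2l1, and 1.32 to 1.48 for Bbc3. These fits hold fewer samples. For the remaining shifts the cause was not tested. Centring, quantile normalization, scaling, robust variances, the methods' t-test, zeros as missing and averaging of listed probes changed no member's call. Averaging gave Bcl2 1.31 with an adjusted p of 0.0729. The methods' t-test put all 5 probes under an unadjusted p of 0.05, which only restates the limit by which the authors selected them. Of 13 other probes of genes named from the lists or as the target, 9 had passed, 7 of these were lost with the block, and 0 reversed in any setting that tested them. The groups did not overlap at these probes either. The number of arrays limits the precision, and signal over background is unknown.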
